A study of Arabidopsis thaliana with 4 samples.

Results

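The cyclins, cyclin-dependent kinases (CDKs) and CDK inhibitors of Arabidopsis thaliana were followed as 42 loci out of the 33602 genes in the tables, found by their locus identifiers. They comprise 9 B-type cyclins, 7 A-type cyclins, 10 D-type cyclins, the kinase CDKA;1, 4 B-type kinases, 7 KIP-related proteins (KRP1 to KRP7), the inhibitors SIM and SMR1, the anaphase activator CDC20.1 and the cytokinesis syntaxin KNOLLE (KN). RNA-seq compared seedlings that overexpress sORF1511, a small open reading frame, from line 7 of the design text (the overexpressor), with seedlings of the accession Col-0 (WT). All seedlings were taken at 12 das, as the labels write it, with 2 libraries per genotype, each from a pool of 5 seedlings. No promoter is named in the labels for the transgene. The titles of the overexpressor libraries carry a longer code than the line number, which the labels do not explain. The labels name a single line, so what the transgene does and what is peculiar to that line cannot be told apart. By its title the series looks for phloem peptides from such reading frames that may act on the timing of flowering.

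In plants, D-type cyclins with CDKA;1 phosphorylate the retinoblastoma-related protein RBR1 at the end of G1, which releases E2F factors and allows DNA replication. A3-type cyclins act around S phase, other A-type cyclins from S phase to mitosis, and B-type cyclins with B-type kinases at the passage from G2 into mitosis. KRP proteins and proteins of the SIAMESE family bind and inhibit CDK complexes, and SIM and SMR1 (also named LGO) promote endoreduplication, in which DNA is copied without division. CDKA;1 messenger RNA is present through the whole cycle, whereas messenger RNAs of B-type cyclins and B-type kinases accumulate in G2 and mitosis. MYB3R factors drive much of that mitotic peak through promoter elements with the core AACGG.

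Because many mitotic genes share the AACGG core, the 250 bases upstream of the annotated gene start were read from the RefSeq annotation of assembly TAIR10.1 for all 42 members. These windows were searched on both strands for AACGG, which reads CCGTT where it lies on the other strand. Of 15 G2/M promoters 8 held it, a share of 53.3%, against 20.6% of the 27443 protein-coding promoters searched. At least 2 copies stood in 6 of the 15, a share of 40%, against 3.62% of all promoters. These 6 were all B1-type or B2-type cyclins. No copy lay in the windows of the other 7 G2/M genes, which were CYCB1;4, CYCB2;4, CYCB3;1, CDKB1;1, CDKB1;2, CDKB2;1 and CDC20.1. Their log2 fold changes (overexpressor over WT) ran from -1.37 for CDKB1;2 to -0.32 for CDC20.1. Those of the 8 with the core ran from -1.48 for CYCB2;2 to -0.55 for KN and CDKB2;2. Any link between the core and the fold change was not tested. CDKA;1, SIM and SMR1 had none, and 1 of 10 D-type cyclins had one. Among the KRP genes 4 of 7 promoters held the core, and KRP1 had 6 copies. The windows of 3 mitotic cyclins that had lower values in the overexpressor, and of KRP1, which did not, are shown with the core in capitals, 5′ to 3′ on the strand of the gene. All but CYCB2;2 lie on the minus strand of TAIR10.1, and the last base shown precedes the annotated start.

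CYCB1;1: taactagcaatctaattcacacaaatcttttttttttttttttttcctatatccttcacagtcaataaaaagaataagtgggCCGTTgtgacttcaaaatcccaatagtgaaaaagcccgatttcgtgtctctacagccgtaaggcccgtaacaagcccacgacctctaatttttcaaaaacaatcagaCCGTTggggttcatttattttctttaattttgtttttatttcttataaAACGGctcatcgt
CYCB1;2: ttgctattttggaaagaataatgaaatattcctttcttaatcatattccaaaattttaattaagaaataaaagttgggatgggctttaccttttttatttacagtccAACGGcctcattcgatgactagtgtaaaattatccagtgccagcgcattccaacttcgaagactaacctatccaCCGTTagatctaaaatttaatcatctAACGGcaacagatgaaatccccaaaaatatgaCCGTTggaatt
CYCB2;2: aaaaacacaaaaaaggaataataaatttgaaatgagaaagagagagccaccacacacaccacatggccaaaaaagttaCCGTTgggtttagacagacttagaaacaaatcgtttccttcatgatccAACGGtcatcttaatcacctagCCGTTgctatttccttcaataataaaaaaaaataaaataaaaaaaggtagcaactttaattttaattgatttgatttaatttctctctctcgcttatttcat
KRP1: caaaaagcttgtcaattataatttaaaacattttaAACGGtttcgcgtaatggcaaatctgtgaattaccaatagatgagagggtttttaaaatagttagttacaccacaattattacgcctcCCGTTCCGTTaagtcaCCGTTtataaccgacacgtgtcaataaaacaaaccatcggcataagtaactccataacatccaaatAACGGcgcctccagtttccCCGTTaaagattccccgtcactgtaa

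In CYCB1;1 the cores begin 168, 61 and 13 bases upstream of the start, in CYCB1;2 143, 69, 43 and 11 bases upstream, and in CYCB2;2 172, 124 and 102 bases upstream. In KRP1 a pair of cores adjoin each other 127 and 122 bases upstream. E2F-type sites, searched on both strands as TTCCCGC or, in the other form, as TTGGCGC, were in 0 of 15 G2/M promoters and in 1.92% of all promoters. Among the members CYCD3;3 had 1. A match describes letters only.

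Expression is given as CPM, reads scaled by TMM (a factor that evens out RNA composition) to a common library size, and differences as the log2 of overexpressor over WT with the SE that edgeR's test implies. Total estimated reads ranged from 13974460 to 25740234 per library, and the members held between 6878 and 14346 of them. WT replicate 1 stood apart, with 28.1% of reads from chloroplast ribosomal RNA, against 0.956% to 1.29% in the other 3 libraries. Its nuclear genes had 9541345 reads. A level of 3 reads corresponded to 0.108 to 0.268 CPM, counting error only.

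Of the 42 members 41 passed the low-count filter and were tested. At an adjusted p below 0.05 over all 19474 genes tested 0 members passed by edgeR's quasi-likelihood method, where 0.149% of all genes did, 0.0103% lower and 0.139% higher. At an unadjusted p below 0.05, 23 members were lower and 2 higher in the overexpressor, against backgrounds of 9.81% lower and 11.9% higher among all genes. By fold change alone 33 were lower and 8 higher, against 51.5% and 48.5% of all genes. DESeq2 called 5 members lower and 0 higher at an adjusted p below 0.05, namely CYCB1;2, CYCB1;4, CYCB2;2, CDKB2;1 and KN, where it called 1.53% of all genes lower and 4.54% higher. Limma-trend on log2(TPM + 1) called 0 members, with 24 of all genes lower and 250 higher, and limma-voom called 0 of all genes, members or not. The median log2 fold change of the tested members was -0.55, beside -0.01 for all genes tested. In 28 members, 68.3% of those tested, both overexpressor libraries lay below both WT libraries, against 28.4% of all genes. In 3 members, KRP1, KRP6 and SMR1, they lay above both, against 28.7% of all genes. Counts of members moved with single libraries. At an unadjusted p below 0.05 there were 15 lower without WT replicate 1, 6 without overexpressor replicate 1 and 9 without overexpressor replicate 2. Among all genes the share at that p in either direction was 20.7%, 9.27% and 7.51% in the same 3 fits. Without WT replicate 2, 12 members were called lower and KRP1 higher over all genes, where edgeR then called 5.18% of genes lower and 6.07% higher. Without WT replicate 1 it called 0 members, with 0.691% of genes lower and 1.18% higher. With scaling by library size only it called CYCB2;2 alone, with 1.23% of genes lower and 2.93% higher, and in a fit blocked by replicate number 0 members, with 0.221% lower and 1.69% higher.

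**Figure D1:**
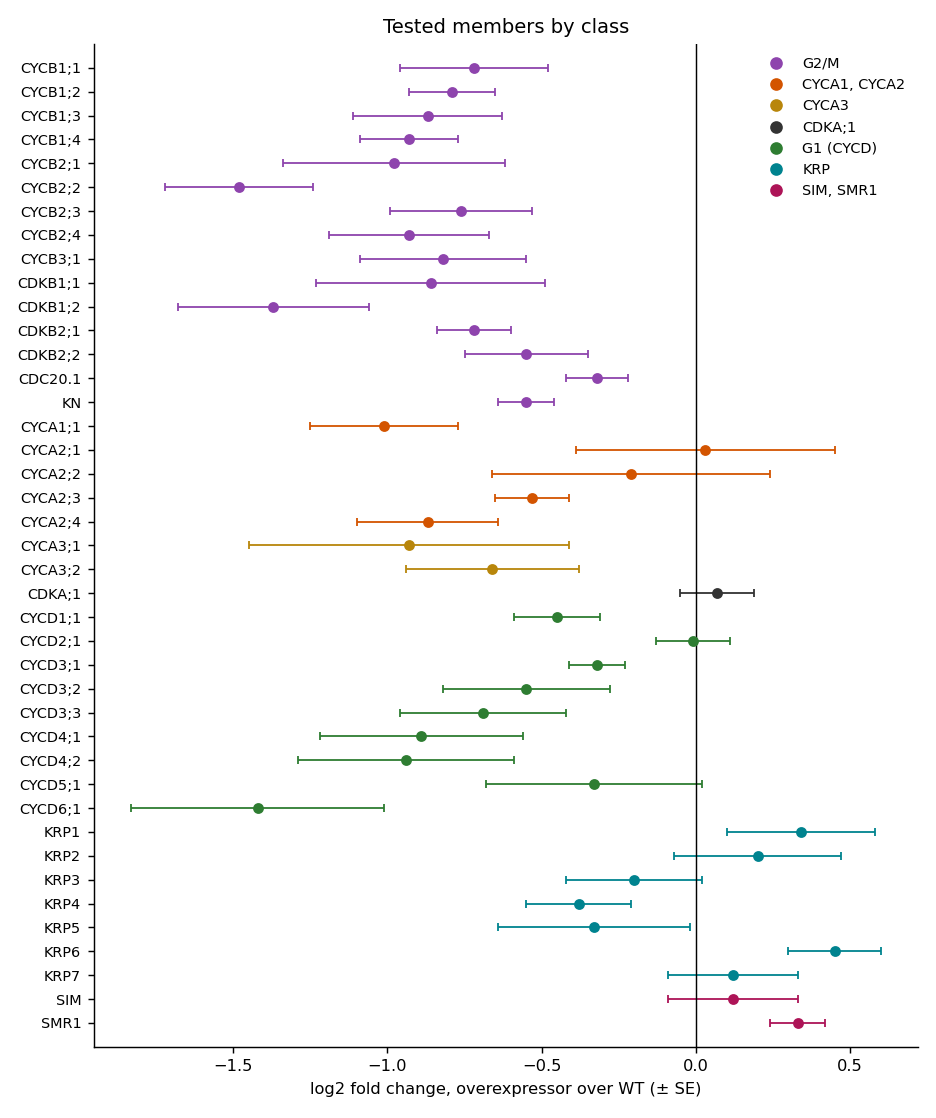
Log2 fold change (overexpressor over WT, horizontal axis) of the 41 tested members, one row per gene, coloured by class, with bars of ± 1 SE from edgeR. All 15 G2/M genes lie left of 0, between -1.48 and -0.32, CDKA;1 lies at 0.07, and the KRP genes lie on both sides.

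Genes of G2 and mitosis had lower values in the overexpressor for all 15 members, with a median of -0.82. The genotypes overlapped in none of them, where 28.4% of all genes were lower without overlap. At an unadjusted p below 0.05 there were 14 of 15, against 9.81% of all genes, and 0 passed adjusted over all genes in edgeR's test. That count was 6 with either overexpressor library left out, 11 with WT replicate 1 left out and 12 with WT replicate 2 left out. Summed over the 15 loci, CPM was 114 and 116 in the overexpressor libraries against 185 and 171 in the WT libraries. The ratio of the means was 0.646, with the 2 overexpressor pools at 115 ± 1.54 CPM and the WT pools at 178 ± 9.83 CPM (SD, n = 2 each). Each library mixes RNA of dividing and other cells, so fewer dividing cells and less of these RNAs per dividing cell cannot be told apart.

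The B-type cyclins, which activate CDKs at entry into mitosis, had the lowest ratio among the G2/M genes. Their 9 loci summed to 32.9 and 35.9 CPM in the overexpressor against 67.2 and 59.7 CPM in WT, a ratio of 0.542. All 9 had an unadjusted p below 0.05, against 9.81% of all genes, but 3 did with either overexpressor library left out, 6 with WT replicate 1 left out and 7 with WT replicate 2 left out. CYCB2;2 (AT4G35620) had the lowest fold change of all members, with 1.82 and 2.26 CPM in the overexpressor against 6.26 and 5.28 CPM in WT. Its log2 fold change was -1.48 ± 0.24, and the Benjamini-Hochberg adjusted p from edgeR was 0.0933. Both overexpressor pools lay well under both WT pools, and 97 reads in the overexpressor stood against 216 in WT.

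CYCB1;2 (AT5G06150) had 9.73 and 11.3 CPM in the overexpressor against 18.8 and 17.6 CPM in WT. CYCB1;4 (AT2G26760) had 4.53 and 4.38 CPM in the overexpressor against 8.05 and 8.82 CPM in WT. The pools of a genotype lay close together for both, with log2 fold changes of -0.79 ± 0.14 and -0.93 ± 0.16. CYCB1;1 (AT4G37490), the cyclin used most widely as a reporter of dividing plant cells, had 3.43 and 4.45 CPM in the overexpressor against 7.33 and 5.79 CPM in WT. Its log2 fold change was -0.72 ± 0.24, and no WT pool overlapped an overexpressor pool. The other B-type cyclins had log2 fold changes from -0.98 for CYCB2;1 to -0.76 for CYCB2;3, with CYCB1;3 at -0.87, CYCB2;4 at -0.93 and CYCB3;1 at -0.82.

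**Figure D2:**
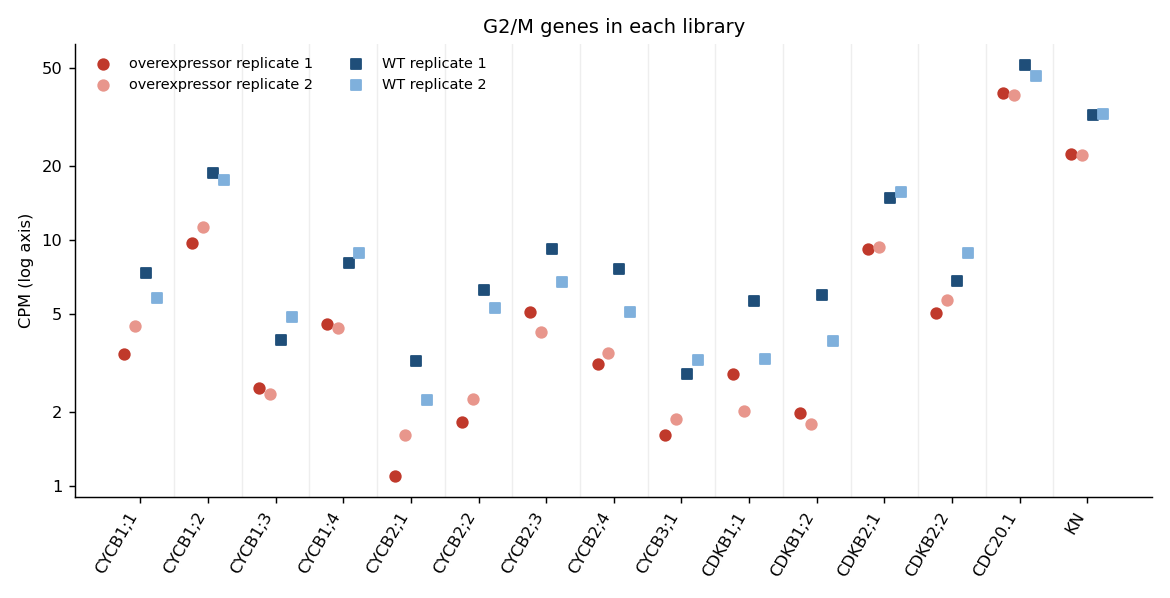
CPM (log axis) of the 15 G2/M genes in each library, with overexpressor libraries as circles and WT libraries as squares. In every gene both circles lie below both squares, from CYCB2;1 at 1.09 to 3.22 CPM up to CDC20.1 at 39.0 to 51.8 CPM.

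B-type kinases, a plant-specific class of CDKs, summed to 19.0 and 18.9 CPM in the overexpressor against 33.3 and 31.6 CPM in WT, a ratio of 0.584. CDKB2;1 (AT1G76540) had 9.15 and 9.41 CPM in the overexpressor against 14.8 and 15.7 CPM in WT, a log2 fold change of -0.72 ± 0.12. CDKB1;2 (AT2G38620) had 1.98 and 1.79 CPM in the overexpressor against 5.99 and 3.87 CPM in WT, a log2 fold change of -1.37 ± 0.31. For CDKB1;2 the WT pools differed more from each other than the overexpressor pools did. CDKB2;2 stood at -0.55 ± 0.20 and CDKB1;1 at -0.86 ± 0.37, and CDKB1;1 was the only G2/M gene with an unadjusted p above 0.05, which edgeR put at 0.065. Without WT replicate 1 it stood at -0.43.

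Of the later mitotic genes, KN (AT1G08560), the syntaxin that fuses vesicles at the forming cell plate, had 22.3 and 22.1 CPM in the overexpressor against 32.3 and 32.7 CPM in WT. Its log2 fold change was -0.55 ± 0.09, with the smallest SE of the class. CDC20.1 (AT4G33270), which activates the anaphase-promoting complex that destroys mitotic cyclins, had 39.5 and 39.0 CPM in the overexpressor against 51.8 and 46.6 CPM in WT. Its log2 fold change of -0.32 ± 0.10 was the smallest in size of the G2/M genes. CDC20.1 lies beside its close copy CDC20.2 (AT4G33260), and the authors' counting could split reads between them. CDC20.2 had 16.1 and 16.5 CPM in the overexpressor against 21.9 and 18.8 CPM in WT.

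The A-type cyclins that act from S phase to mitosis were lower in part. The median of the 5 was -0.53. Of all genes 9.81% were lower at an unadjusted p below 0.05, and 28.4% were lower without overlap. Of the 5, 3 were lower at that p, with no overlap between genotypes. Leaving out overexpressor replicate 1 gave 0, and leaving out overexpressor replicate 2 gave 2. CYCA1;1 (AT1G44110), the mitotic A-type cyclin, had 4.58 and 5.32 CPM in the overexpressor against 12.0 and 8.17 CPM in WT, a log2 fold change of -1.01 ± 0.24. CYCA2;3 (AT1G15570), which restrains endoreduplication together with CDKB1;1, had 12.5 and 13.7 CPM in the overexpressor against 19.8 and 18.4 CPM in WT, a log2 fold change of -0.53 ± 0.12. CYCA2;4 (AT1G80370) had 2.55 and 2.70 CPM in the overexpressor against 5.36 and 4.30 CPM in WT. The libraries of the genotypes overlapped in the remaining pair. CYCA2;1 (AT5G25380) had 0.624 and 0.620 CPM in the overexpressor against 0.715 and 0.542 CPM in WT. CYCA2;2 (AT5G11300) had 1.61 and 2.11 CPM in the overexpressor against 3.04 and 1.45 CPM in WT, and its log2 fold change of -0.21 ± 0.45 became 0.39 without WT replicate 1.

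Both A3-type cyclins of S phase had values that turned on WT replicate 1. CYCA3;2 (AT1G47210) had 7.18 and 8.57 CPM in the overexpressor against 15.7 and 9.44 CPM in WT. CYCA3;1 (AT5G43080) had 1.98 and 1.90 CPM in the overexpressor against 5.63 and 2.03 CPM in WT. The genotypes did not overlap, but WT replicate 2 lay close to the overexpressor pools, and the spread between the WT pools was larger than its distance to them. The median of the pair was -0.79, or -0.15 once WT replicate 1 was left out and -1.26 once WT replicate 2 was. By edgeR 0 of 2 had an unadjusted p below 0.05, and 2 of 2 did without WT replicate 2.

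CDKA;1 (AT3G48750), the partner of D- and A-type cyclins through the cycle, had 36.6 and 30.3 CPM in the overexpressor against 31.1 and 32.7 CPM in WT. The genotypes overlapped, with a log2 fold change of 0.07 ± 0.12. Since a ratio to CDKA;1 within a library does not depend on scaling between libraries, each class was also expressed as its summed TPM over the TPM of CDKA;1. For the G2/M genes this ratio was 2.94 and 3.61 in the overexpressor against 5.65 and 4.99 in WT, without overlap. For the D-type cyclins it was 3.74 and 4.65 in the overexpressor against 7.33 and 4.80 in WT. For the A3-type cyclins it was 0.266 and 0.354 in the overexpressor against 0.730 and 0.362 in WT. In both of these classes WT replicate 2 lay just above the overexpressor. For the KRP genes it was 2.62 and 3.09 in the overexpressor against 2.59 and 2.78 in WT, which overlap. Such ratios show unequal change. No p is given for them, since an exact permutation test of 2 pools against 2 cannot reach 0.05.

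**Figure D3:**
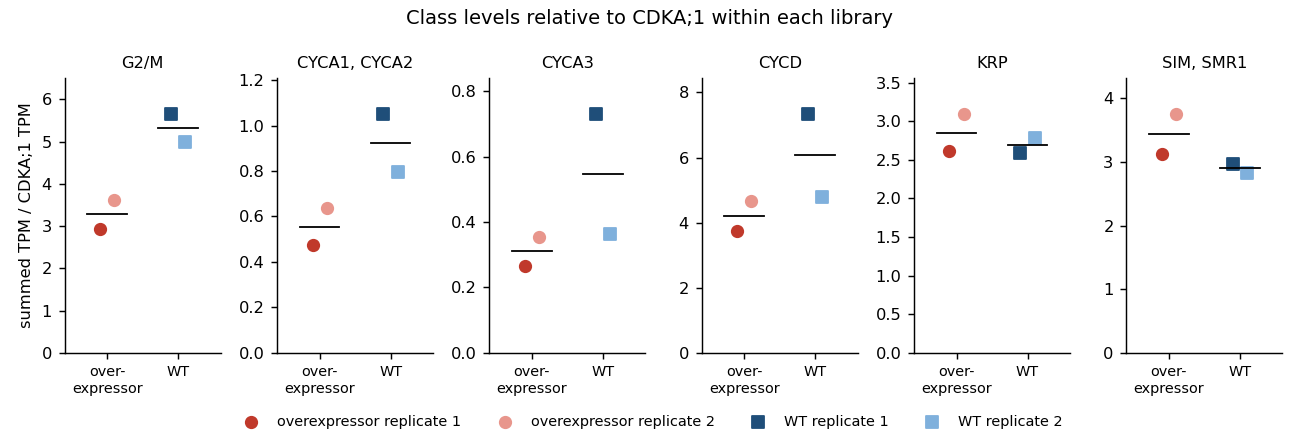
Summed TPM of each class divided by the TPM of CDKA;1 in the same library, one panel per class with its own axis from 0, the overexpressor left of WT, horizontal lines at the genotype means. The G2/M panel separates the overexpressor, at 2.94 and 3.61, from WT, at 5.65 and 4.99, while in the CYCA3 and CYCD panels WT replicate 2 lies near the overexpressor.

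The D-type cyclins of G1 were lower in the overexpressor in all 9 tested members by fold change, with a median of -0.55. By edgeR 6 of 9 had an unadjusted p below 0.05, where 9.81% of all genes were lower at that p. In 7 of 9 the genotypes did not overlap, where 28.4% of all genes were lower without overlap. All 9 were also lower in WT replicate 2 than in WT replicate 1, with a median log2 ratio of -0.57, about the size of the difference between genotypes. Without WT replicate 1 the median was -0.26, with 1 of 9 at an unadjusted p below 0.05, and without WT replicate 2 it was -0.91. Leaving out overexpressor replicate 1 gave a count of 0, and leaving out overexpressor replicate 2 a count of 1. The sign of CYCD2;1 turned under several alternatives and that of CYCD5;1 without WT replicate 1. CYCD7;1 (AT5G02110) was not tested, with 6 and 5 reads in the overexpressor and 3 and 4 reads in WT.

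CYCD3;1 (AT4G34160), a cyclin that responds to cytokinin and delays the exit from division in leaves, had 40.7 and 39.2 CPM in the overexpressor against 52.2 and 48.0 CPM in WT. Its pools lay close together, with a log2 fold change of -0.32 ± 0.09. CYCD1;1 (AT1G70210) had 21.7 and 25.8 CPM in the overexpressor against 35.0 and 30.3 CPM in WT, a log2 fold change of -0.45 ± 0.14. CYCD6;1 (AT4G03270), known from formative divisions in the root, had 1.04 and 1.24 CPM in the overexpressor against 4.11 and 2.17 CPM in WT. Its fold change was the lowest among D-type cyclins, at -1.42 ± 0.41, and it became -0.90 without WT replicate 1. CYCD4;1 (AT5G65420) had 1.92 and 1.64 CPM in the overexpressor against 4.11 and 2.60 CPM in WT. CYCD4;2 (AT5G10440), of the same subgroup, had 0.884 and 0.766 CPM in the overexpressor against 1.79 and 1.41 CPM in WT.

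CYCD3;2 (AT5G67260), with the highest TPM among D-type cyclins in every library, had 51.0 and 51.9 CPM in the overexpressor against 96.7 and 54.3 CPM in WT. The WT pools thus differed by more than WT replicate 2 differed from the overexpressor, and the log2 fold change of -0.55 ± 0.27 became -0.07 without WT replicate 1. Leaving out WT replicate 2 instead gave -0.91. CYCD3;3 (AT3G50070) showed the same order of libraries, with 12.1 and 12.8 CPM in the overexpressor against 25.7 and 15 CPM in WT. CYCD2;1 (AT2G22490) had 17.9 and 18.7 CPM in the overexpressor against 19.8 and 17.2 CPM in WT and a log2 fold change of -0.01 ± 0.12, and CYCD5;1 stood at -0.33 ± 0.35. Its value was 0.18 without WT replicate 1.

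The inhibitors had no common direction. Of the 7 KRP genes 4 had higher and 3 lower values in the overexpressor, with a median of 0.12. At an unadjusted p below 0.05, 1 of 7 was higher, near the 11.9% of all genes that were. Without WT replicate 1 the signs of KRP2, KRP3, KRP5 and SIM turned, and without WT replicate 2 that of KRP7. KRP6 (AT3G19150) had 11.3 and 11.9 CPM in the overexpressor against 7.69 and 9.15 CPM in WT, a log2 fold change of 0.45 ± 0.15, and edgeR gave an unadjusted p of 0.030. KRP1 (AT2G23430) had 16.0 and 16.6 CPM in the overexpressor against 9.75 and 15.7 CPM in WT. KRP1 was thus separated from WT replicate 2 by little, and its log2 fold change of 0.34 ± 0.24 became 0.07 without WT replicate 1. Leaving out WT replicate 2 instead gave 0.74. KRP4 (AT2G32710) was the only KRP gene lower in both overexpressor pools, with 6.50 and 7.69 CPM in the overexpressor against 10 and 8.64 CPM in WT.

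The libraries overlapped for the other KRP genes. KRP2 (AT3G50630) had 12.2 and 9.15 CPM in the overexpressor against 7.15 and 11.2 CPM in WT, so that each genotype had a high and a low pool. KRP5 (AT3G24810) had 2.86 and 2.88 CPM in the overexpressor against 4.56 and 2.82 CPM in WT. KRP3 (AT5G48820) had 5.05 and 5.98 CPM in the overexpressor against 7.33 and 5.46 CPM in WT. In both, WT replicate 1 alone stood above the other libraries. KRP7 stood at a log2 fold change of 0.12 ± 0.21.

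SMR1 (AT3G10525) had 41.2 and 40.9 CPM in the overexpressor against 33.3 and 31.9 CPM in WT, with close pools and no overlap. Its log2 fold change was 0.33 ± 0.09, and edgeR gave an unadjusted p of 0.013 and a Benjamini-Hochberg adjusted p of 0.152. Per length SMR1 was the most abundant member in 3 of the 4 libraries, at 2.76 and 3.30 times the TPM of CDKA;1 in the overexpressor and 2.63 and 2.39 times in WT. CYCD3;2 exceeded it in WT replicate 1 only, at 3.11 times. SIM (AT5G04470), which keeps trichome cells from dividing, had 6.66 and 7.00 CPM in the overexpressor against 5.28 and 7.2 CPM in WT, and the genotypes overlapped.

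Per length the mitotic genes spanned a wide range. KN stood at 0.742 and 0.887 times CDKA;1 in the overexpressor and 1.26 and 1.22 times in WT, and CDKB2;1 at 0.267 and 0.331 times in the overexpressor and 0.509 and 0.511 times in WT. CYCB3;1 stood at 0.0311 and 0.0432 times in the overexpressor and 0.0647 and 0.0701 times in WT. Each of KN, CDKB2;1 and CYCB3;1 was lower by this ratio in both overexpressor libraries than in both WT libraries.

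The classes differed in how far they rested on single libraries. The G2/M median ran from -0.90 to -0.70 when each library was left out in turn, the A3-type median from -1.26 to -0.15, and the D-type median from -0.91 to -0.26. For the KRP genes it ran from -0.05 to 0.21 and so took both signs. With scaling by library size only, which shifted the median of all genes to 0.10, the G2/M median was -0.69. Whether the classes differ from each other was not tested.

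**Figure D4:**
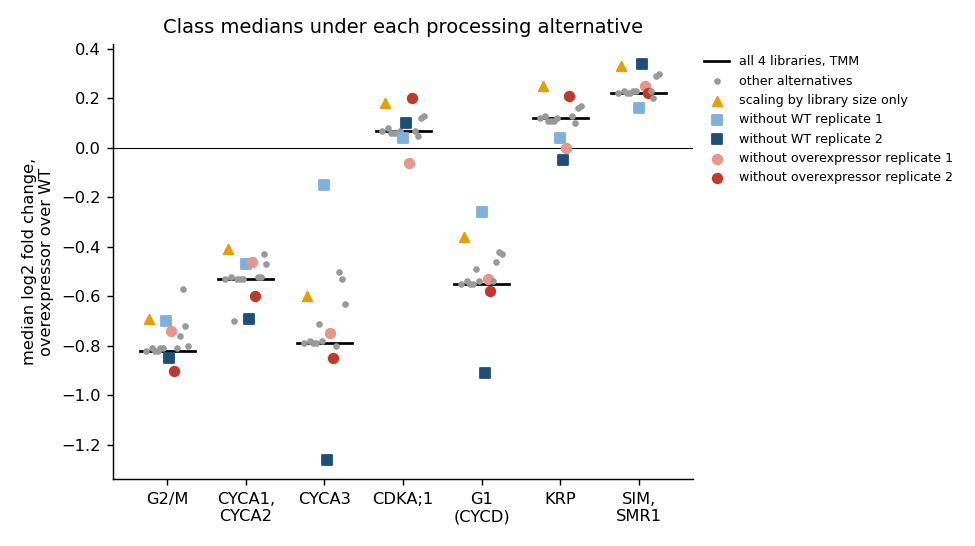
Median log2 fold change of each class (vertical axis, overexpressor over WT) with all 4 libraries (black line) and under each of 15 alternatives (points, including each library left out). G2/M points stay between -0.90 and -0.57, while CYCA3 and CYCD points move most when a WT library is left out.

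Further genes of the cell cycle were taken from 6 lists with 53 loci, of which 50 were tested and 0 passed over all genes by edgeR. At an unadjusted p below 0.05 there were 15 lower and 0 higher, against backgrounds of 9.81% and 11.9%, and DESeq2 called HIK alone at an adjusted p below 0.05. Genes of mitosis and cytokinesis were lower in all 12 tested members, 10 of them at an unadjusted p below 0.05, with a median of -0.58. Leaving out overexpressor replicate 1 gave 4 of these and 5 over the 6 lists, and leaving out overexpressor replicate 2 gave 6 and 7. HIK (AT1G18370), a kinesin needed to expand the cell plate, had 18.0 and 17.9 CPM in the overexpressor against 27.5 and 26.8 CPM in WT. RUK (AT5G18700) had 14.9 and 15.8 CPM in the overexpressor against 24.0 and 21.9 CPM in WT. PLE (AT5G51600), a microtubule bundling protein of the phragmoplast, had 8.79 and 9.81 CPM in the overexpressor against 14.9 and 14.4 CPM in WT. The pools of a genotype lay close together in all of HIK, RUK and PLE. TES, a relative of HIK known from pollen formation, had a log2 fold change of -0.03 ± 0.16 and overlapping libraries.

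The transcriptional regulators had a median of -0.06 over 13 tested genes. Of these 2 (15.4%) were lower at an unadjusted p below 0.05, not far from the 9.81% of all genes. MYB3R4 (AT5G11510), an activator of mitotic genes, had 9.62 and 9.66 CPM in the overexpressor against 15.6 and 13.7 CPM in WT, a log2 fold change of -0.60 ± 0.14. DEL1 (AT3G48160), an atypical E2F that restrains endoreduplication, had 3.07 and 2.92 CPM in the overexpressor against 6.71 and 4.27 CPM in WT. RBR1 (AT3G12280) had 44.5 and 42.6 CPM in the overexpressor against 44.9 and 42.7 CPM in WT. For RBR1 the log2 fold change was -0.01 ± 0.09. MYB3R1 stood at -0.26 ± 0.16, and MYB3R2 had 0 reads in every library.

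The S-phase list had a median of -0.24 over 8 genes. At an unadjusted p below 0.05, 1 of 8 (12.5%) was lower, against a similar 9.81% of all genes. It was the ribonucleotide reductase subunit TSO2 (AT3G27060). TSO2 had 66.0 and 62.1 CPM in the overexpressor against 84.6 and 72.2 CPM in WT. As with the A3-type cyclins, all 8 had a higher CPM in the first WT pool than in the second, and without WT replicate 1 the median was -0.05. The CDK-activating and modifying genes had a median of -0.20 over 8 genes. Again 1 of 8 (12.5%) was lower at an unadjusted p below 0.05, against 9.81% of all genes, namely CDKD;3 at -0.63 ± 0.24. Without WT replicate 1 CDKD;3 stood at -0.32, and 7 of these 8 genes were lower in WT replicate 2 than in WT replicate 1. The activators of the anaphase-promoting complex had a median of -0.09 over 4 genes. Only 1 of 4 was lower at an unadjusted p below 0.05, against 9.81% of all genes, namely CCS52B (AT5G13840) at -0.31 ± 0.11. CCS52A1 and CCS52A2, which act in endoreduplication, stood at 0.16 ± 0.16 and 0.12 ± 0.19. Of 7 other SIAMESE-related inhibitors 5 were tested, all 5 with positive fold changes, a median of 0.32 and 0 at an unadjusted p below 0.05. Among them AT5G02420 had 1.87 and 3.10 CPM in the overexpressor against 0.447 and 1.66 CPM in WT, with a log2 fold change of 1.12 ± 0.60. WT replicate 1 held 5 of its reads, and the value was 0.61 with that library left out and 2.47 with WT replicate 2 left out. With overexpressor replicate 1 left out, the lower counts of the S-phase, CDK-activating and anaphase-promoting lists were 0, and that of the transcriptional regulators was 1.

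**Figure D5:**
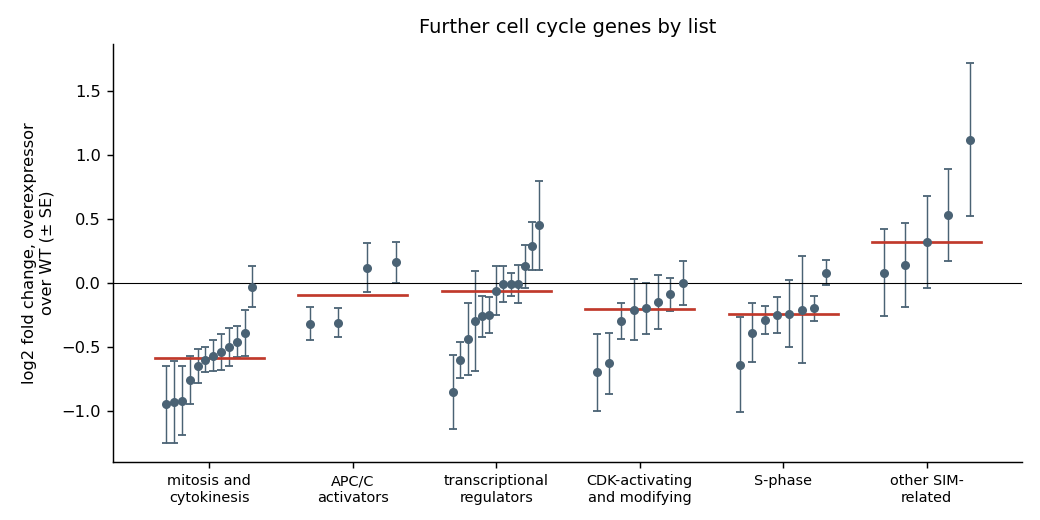
Log2 fold change ± SE (overexpressor over WT, vertical axis) of each tested gene in the 6 further lists, with list medians as red lines. The mitosis and cytokinesis genes lie at or below -0.03, while the other lists centre between -0.24 and 0.32.

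Some markers of tissues that hold dividing cells were lower along with the mitotic genes, and others were not. Of 6 genes active in proliferating young leaves 6 had lower values without overlap, against 28.4% of all genes, and 4 had an unadjusted p below 0.05, against 9.81%. The 4 became 0 with overexpressor replicate 1 left out, 2 with overexpressor replicate 2 or WT replicate 1 left out, and 6 with WT replicate 2 left out. Their sum was 64.9 and 73.9 CPM in the overexpressor against 109 and 87.7 CPM in WT. The stomatal lineage list, whose precursor cells divide, summed to 37.1 and 37.9 CPM in the overexpressor against 46.8 and 38.2 CPM in WT, with 0 of 7 at an unadjusted p below 0.05. Of 4 shoot meristem genes 2 were tested, and of the defining markers CLV3 had 3 reads in the overexpressor and 3 in WT, and WUS 0 in the overexpressor and 2 in WT. STM, which maintains the shoot meristem, had 5.83 and 5.36 CPM in the overexpressor against 3.4 and 3.36 CPM in WT, above WT in both pools. KNAT1, the other one tested, had 14.0 and 12.0 CPM in the overexpressor against 17.5 and 13.4 CPM in WT. The shoot meristem list summed to 19.9 and 17.4 CPM in the overexpressor against 21.2 and 16.9 CPM in WT, which overlap. Of 5 root meristem genes 3 were tested, with a sum of 44.6 and 44.2 CPM in the overexpressor against 53.3 and 51.8 CPM in WT. Nearly all of that sum came from SCR and SHR. Of the 3 tested, 0 had an unadjusted p below 0.05 by edgeR, and 1 was lower without overlap, against 28.4% of all genes. PLT1, PLT2 and WOX5 had 13, 4 and 35 reads in the overexpressor and 23, 16 and 35 in WT. The 6 root endodermis markers are not markers of dividing cells. They summed to 1.61 and 2.19 CPM in the overexpressor against 7.15 and 15.8 CPM in WT, and CASP5 had 0 reads in 3 libraries. CASP1 among them stood at -3.04 ± 0.43, and DESeq2 called it lower at an adjusted p of 5.82e-06, where edgeR gave 0.0814. Photosynthesis genes of leaves summed to between 43263.7 and 46009.3 CPM in the overexpressor and between 38108.5 and 38450.9 CPM in WT, so leaf RNA was present in every pool. The part of these marker differences in the values of the mitotic genes was not tested.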

How the data were processed

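RNA of seedlings was sequenced from stranded, poly(A)-enriched Illumina libraries made with 200 ng of RNA each, per the labels' protocols. For every library the authors supplied a table of 33602 genes whose columns are estimated counts, TPM and lengths, per the file headers. These deposited estimated counts were not normalized, and the deposited TPM are relative to effective length and sum to the same total in each library. DESeq2 is the only tool that the submitters' processing notes name, and the quantifier, build and annotation are not given here.

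Estimated counts were rounded and tested with edgeR 4.0.16 in R 4.3.3: filterByExpr (minimum count 10, minimum total 15), TMM, glmQLFit, glmQLFTest and Benjamini-Hochberg adjustment over 19474 genes. SE is the size of the log2 fold change, as edgeR reports it after its prior count, over the square root of F. Limma 3.58.1 and DESeq2 1.42.0 served as alternatives. The labels call the 2 pools of a genotype biological replicates. Their counts differed by more than sampling noise (chi-square over its degrees of freedom was 9 in the overexpressor and 397 in WT). These figures were taken over all tested genes with scaling by library totals only. The WT figure thus includes the chloroplast ribosomal RNA, 28.1% of reads in replicate 1 against 1.29% in replicate 2, and does not measure the members' spread.

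The members, classes and lists were chosen with earlier results of these data known. Named genes are all members, with values per library for CDKA;1, CYCB1;1, CDC20.1, KN, SIM, SMR1 and up to 6 per class with the smallest unadjusted p, and up to 3 per further list. CYCD3;2, CYCD2;1, TES, RBR1, MYB3R1, CCS52A2, STM, KNAT1, CASP1, SCR, SHR, PLT1, PLT2 and WOX5 were added after their values were seen. Names follow the TAIR10.1 gene reference, which held all 42 members. Since the tables name no build, no coordinates are printed. Proteins were not used here.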

Additional observations from a re-analysis of the deposited data

How the results depend on the processing

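Same-numbered libraries have a replicate number in common, and the labels name no batch. Pearson's r of their deviations across genes was 0.039. That r sets a single difference between WT pools against a single difference between overexpressor pools, and a shared batch was not tested. With the replicate number as a block, 22 members were lower and 2 higher at an unadjusted p below 0.05, 0 members passed over all genes, and the G2/M median was -0.81.

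Members called lower over all genes numbered 1 with scaling by library size only and 5 with DESeq2, and 0 to 12 when each library was left out, the 12 without WT replicate 2. Members called higher numbered 0 to 1 in the same way. At an unadjusted p below 0.05, lower members numbered 7 with scaling by library size only, 14 and 13 with limma-trend on log2(TPM + 1) and log2(TPM + 0.1), and 6 to 24 with a library left out, the 6 without overexpressor replicate 1. Higher members numbered 0 with scaling by library size only and with both limma-trend fits, 1 with DESeq2 and 0 to 3 with a library left out. Members higher without overlap numbered 3 to 9. For the further lists, lower genes numbered 1 with scaling by library size only, 9 with DESeq2, 4 and 3 with limma-trend and 5 to 20 with a library left out, and calls over all genes numbered 1 with DESeq2 and 0 to 7 with a library left out.

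The G2/M median was -0.57 with limma-trend on log2(TPM + 1). The median of the other A-type cyclins was -0.70 with a filter of 1 CPM in 2 libraries, which dropped CYCA2;1, and -0.69 to -0.46 with a library left out. With a library left out the medians were -1.26 to -0.15 for CYCA3, -0.91 to -0.26 for CYCD, -0.05 to 0.21 for KRP and 0.16 to 0.34 for SIM and SMR1, and the last was 0.33 with scaling by library size only. Ratios of summed CPM with that scaling were 0.709 for G2/M, 1.17 for KRP and 1.34 for SIM and SMR1, and 1.28 for the last in TPM.

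Of 614 gene values under alternatives 20 had the opposite sign. CYCD5;1 and KRP5, both at -0.33 with all libraries, were the largest in size of these. CYCA2;1 was -0.20 without WT replicate 2, CYCA2;2 0.39 without WT replicate 1 and 0.05 with limma-voom, and CDKA;1 ran from -0.06 without overexpressor replicate 1 to 0.20 without overexpressor replicate 2. CYCD2;1 was 0.13 with scaling by library size only, 0.00 with no low-count filter, without organelle genes and with DESeq2, 0.10 without WT replicate 1 and -0.11 without WT replicate 2, 0.03 without overexpressor replicate 1, 0.02 with limma-voom, and 0.05 and 0.06 with limma-trend. Without WT replicate 1, CYCD5;1 was 0.18, KRP2 -0.06, KRP3 0.03, KRP5 0.04 and SIM -0.06, against -0.74, 0.57, -0.40, -0.67 and 0.37 for the same genes in that order without WT replicate 2. KRP2 was 0.00 without overexpressor replicate 1 and KRP7 -0.05 without WT replicate 2 and 0.29 without WT replicate 1. The cause was not tested. With a library left out, its lone remaining partner is assumed to vary as the other genotype does. Counts without overlap under an effective-length offset and under limma-trend were not run, and TPM in place of CPM stood in for them. Depth limits the rarest members, such as CYCD7;1.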
